A study of Mus musculus with 4 samples.

Results

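The 10 genes described here encode the transcription factors and hormone receptors that define the luminal lineage of the mammary gland: Gata3, Foxa1, Elf5, Spdef, Ehf, Tbx3, Esr1, Pgr, Prlr and Stat5a. They were taken by gene name from the read count table, 10 of 54532 genes, and all 10 were among the 15993 that passed the filter on low counts. RNA came from mCherry-positive tumor cells of MMTV-PyMT; Dll1 mCherry tumors on a C57BL/6 background, in which the mCherry signal reports Dll1, a ligand of Notch receptors. Of the 4 libraries 2 came from tumors given targeted radiation at day 30, called irradiated 1 and 2, and 2 from tumors with no radiation, called unirradiated 1 and 2. The codes in the sample titles split as the treatment does, so anything else these codes stand for cannot be told apart from radiation. Both groups carry the polyoma middle T oncogene under the MMTV promoter, which is active in mammary epithelium, and the Dll1 reporter. Per the design text the tumors grew from an MFP injection of PyMT-Dll1+ cells. Digested tumors were sorted with antibodies to CD45, CD31 and TER119, surface proteins of leukocytes, vessel lining and erythroid cells, so that other cells were depleted, and mCherry-positive cells were then collected. Nothing in the labels ties the libraries to separate animals. The p-values therefore reflect the scatter among 4 libraries, part or all of which may be technical.

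Luminal cells of the mammary gland include hormone-sensing cells, which carry the receptors for estrogen and progesterone, and alveolar cells, which make milk. Gata3 and Foxa1 open chromatin and act together with the estrogen receptor in luminal cells. Elf5 directs the alveolar fate. Prolactin binds its receptor Prlr, the attached kinase Jak2 becomes active, and Stat5a is phosphorylated and switches on milk genes.

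The libraries held 19931303 and 18903631 counts in the irradiated group and 20817997 and 16811888 in the unirradiated group. The irradiated pair was far less alike than the unirradiated pair, with a biological coefficient of variation across genes of 39.5% against 5.93%. Luminal epithelial markers summed to 13710 and 11740 CPM (counts scaled to library size) in the irradiated libraries and 13960 and 13340 CPM in the unirradiated ones, over 16 of 16 markers, and Epcam and the luminal keratins Krt8 and Krt18 were abundant in every library. Basal markers, 15 of 15, summed to 968 and 707 CPM against 792 and 776 CPM. Markers of cells that the sort was meant to remove were highest in irradiated 2. Endothelial markers, 10 of 10, summed to 78.1 and 1102 CPM against 47.8 and 46.5 CPM, and Pecam1, which encodes CD31, was at 9.48 and 158 CPM against 6.98 and 4.95 CPM. Ptprc, which encodes CD45, was at 9.63 and 77.2 CPM against 2.41 and 1.18 CPM. Macrophage markers, 11 of 11, summed to 366 and 1055 CPM against 358 and 325 CPM, and the lymphocyte markers that passed the filter, 8 of 11, to 119 and 158 CPM against 119 and 123 CPM. Fibroblast markers, 10 of 12, summed to 796 and 5870 CPM against 597 and 614 CPM, with Tcf21 at 0 counts in every library. The 8 of 12 salivary gland markers that passed summed to 601 and 1115 CPM against 787 and 738 CPM, the 3 of 8 adipocyte markers to 27.7 and 116 CPM against 26.9 and 26.9 CPM, and the 3 of 8 skeletal muscle markers to 5.70 and 17.4 CPM against 4.14 and 2.71 CPM. Adipoq, the defining adipocyte gene, had 0 counts in irradiated 1 and 14 in irradiated 2, against 2 and 0 in the unirradiated libraries. Counted by gene, macrophage markers lay above in both irradiated libraries in 10 of 11, lymphocyte markers in 7 of 8, endothelial markers in 9 of 10, fibroblast markers in 7 of 10 and salivary gland markers in 5 of 8, with 3 of 8 below. The median log2 difference from the unirradiated mean was 2.45 in irradiated 1 and 5.63 in irradiated 2 for macrophage markers, 2.02 and 4.22 for lymphocyte markers, 2.67 and 4.58 for salivary gland markers, 0.72 and 4.92 for endothelial markers and 0.31 and 3.20 for fibroblast markers. The part that these other cells play in the values below was not tested. Dll1, the gene sorted on, had 146 and 80.2 CPM with radiation and 130 and 129 CPM without.

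Tbx3 was 2.5 times as high in the irradiated libraries, and Spdef was at 60% of its unirradiated level. The 3 most abundant factors, Ehf, Gata3 and Elf5, lay a little lower with radiation, Ehf mainly in irradiated 2. Foxa1, Pgr, Prlr, Esr1 and Ehf differed more between the 2 irradiated libraries than between the groups. Of these, Ehf was lower in irradiated 2 than in irradiated 1 and the others were higher. 0 of the 10 genes passed by edgeR, which called 0% of 15993 genes, and the lowest adjusted p over all genes was 0.489. Tbx3, Spdef and Elf5 had an unadjusted p under 0.05, 3 of the 10, as did 9.25% of all genes (6.82% higher and 2.44% lower with radiation). DESeq2 called 1 of the 10 higher, Tbx3, beside 2.96% of genes, and 1 lower, Spdef, beside 0.380% (3.34% in either direction). In limma-voom 0 of the 10 and 0% of genes passed. When irradiated 1 was left out, edgeR called Foxa1 and Tbx3 higher, beside 15.9% of genes, and Gata3, Elf5, Spdef and Ehf lower, beside 7.95%. When irradiated 2 was left out, it called Tbx3 higher, beside 11.9% of genes, and Elf5, Spdef, Pgr and Prlr lower, beside 13.9%. In both of these fits the lone irradiated library is assumed to vary like the unirradiated pair.

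The groups did not overlap in 6 of the 10 genes, beside 40.4% of all tested genes. Tbx3 was the 1 gene with its irradiated values on top, a placing that 20.3% of all tested genes had. Gata3, Elf5, Spdef, Ehf and Stat5a, 5 of the 10, had their irradiated values underneath, as had 20.0% of all tested genes. Luminal epithelial markers lay below in 8 of 16 and above in 3, with a median log2 fold change of -0.16, and basal markers lay below in 6 of 15 and above in 3, with a median of -0.17. The part of a general difference in epithelial genes in these 5 genes was not tested. The groups overlapped in Foxa1, Esr1, Pgr and Prlr. The median log2 fold change of the 10 genes was -0.15, beside 0.0040 over all tested genes. Lower RNA in bulk cells can come from fewer cells of a type or less RNA per cell, and these cannot be told apart here.

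**Figure D1:**
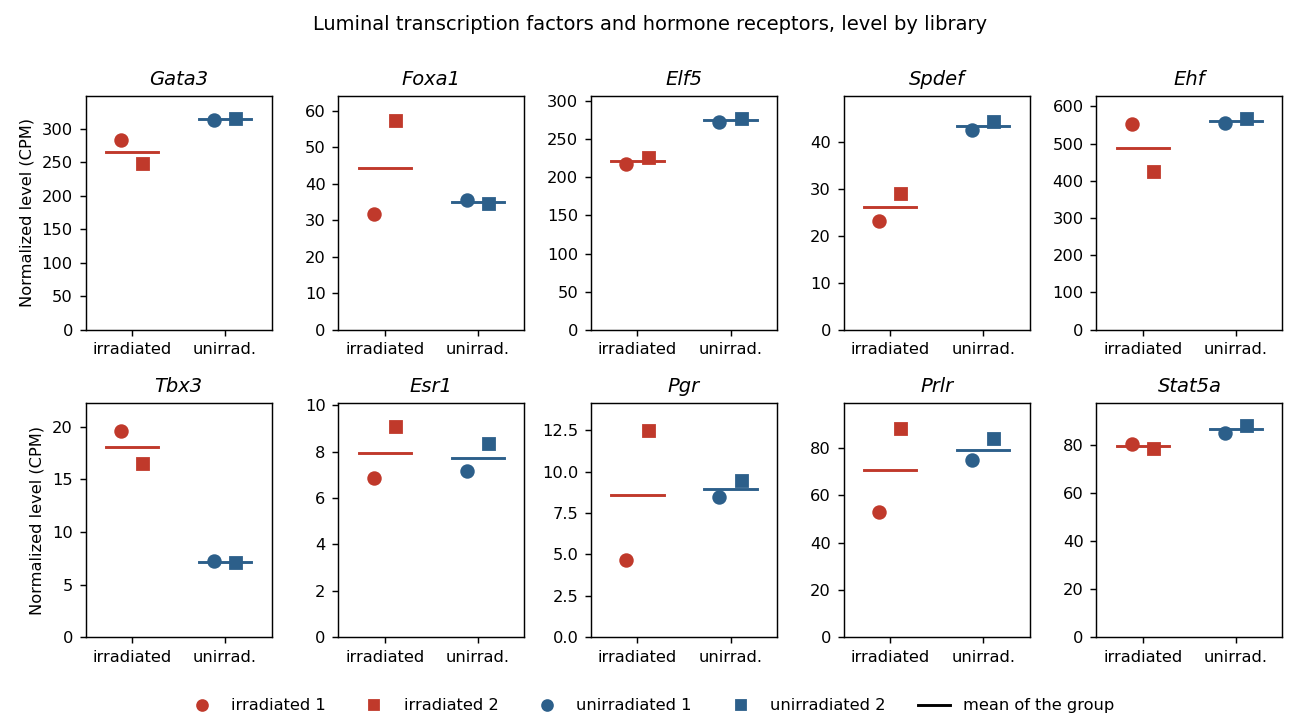
Normalized level in CPM of the 10 genes by library, irradiated libraries on the left and unirradiated on the right, with circles for library 1, squares for library 2 and a bar at the mean of each group. Tbx3 sits at 16.5 to 19.6 CPM with radiation and at 7.08 to 7.27 CPM without, Spdef is lower in both irradiated libraries, and Foxa1, Pgr and Prlr are spread widely in the irradiated group.

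Levels between genes were compared per length, as reads scaled to library size and exon length (RPKM). In the irradiated libraries Ehf stood first at 87.5 ± 16.1 and Gata3 second at 66.8 ± 6.38 (SD, n = 2), and in the unirradiated libraries they were at 101 ± 1.04 and 79.0 ± 0.131 (SD, n = 2). Elf5 followed with 37.7 ± 0.971 against 46.8 ± 0.384. The irradiated values of these 3 genes did not overlap one another. Below them the order was close: Foxa1 was at 9.54 and 17.1 in the irradiated libraries, Spdef at 10.1 and 12.6 and Stat5a at 11.29 and 10.96, so the ranges of these neighbors overlapped. In the unirradiated libraries the same genes were apart, with Spdef at 18.5 and 19.2, Stat5a at 11.9 and 12.3 and Foxa1 at 10.7 and 10.4. Spdef ranked at place 5 with radiation and 4 without, Stat5a at 6 and 5, and Foxa1 at 4 and 6. Prlr was at 4.59 ± 1.63 against 5.17 ± 0.409 and Tbx3 at 2.72 ± 0.331 against 1.08 ± 0.0202. The steroid receptors were lowest on this scale, Pgr at 1.00 ± 0.644 against 1.05 ± 0.0800 and Esr1 at 0.583 ± 0.114 against 0.567 ± 0.0593. The length used joins all annotated exons of a gene, 13661 bases for Esr1, 8546 for Pgr and 6624 for Tbx3. Before scaling to length, Tbx3 was lowest in the unirradiated libraries, with a mean of 7.17 CPM against 7.74 for Esr1 and 8.95 for Pgr. The ranges of Pgr and Esr1 overlapped with radiation and did not overlap without. Those of Tbx3 and Pgr overlapped without radiation and did not with it. In each library Ehf lay above 96.6% of tested genes or more by this scale, whereas Esr1 lay above no more than 17.3%.

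**Figure D2:**
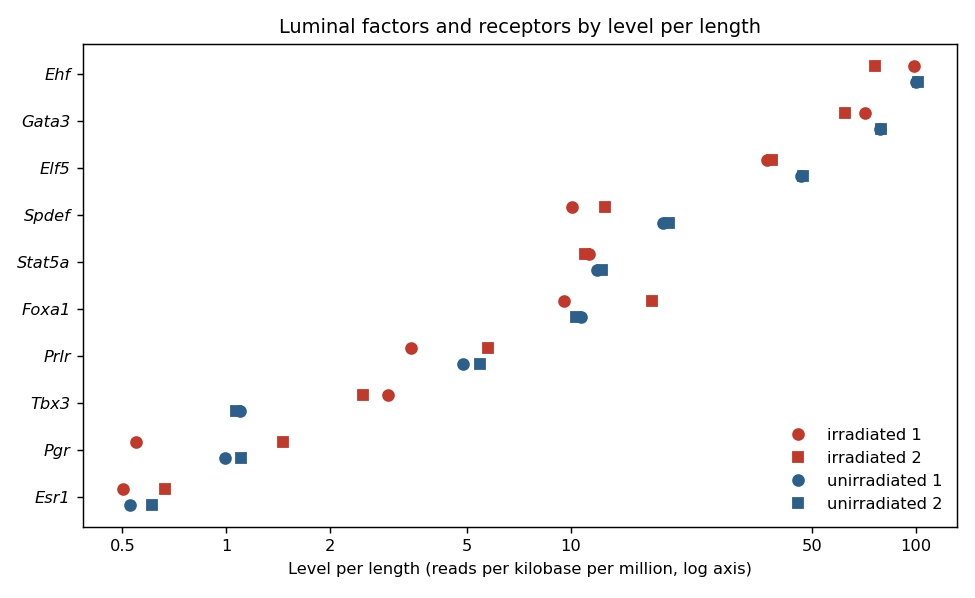
Level per length of the 10 genes in RPKM, on a log axis, with 1 row per gene in the order of the unirradiated means and the irradiated libraries drawn above the unirradiated ones in each row. Ehf, Gata3 and Elf5 lie between 37.0 and 101 and keep their order in every library, while Pgr and Esr1 lie between 0.502 and 1.46.

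Gata3 encodes the zinc finger factor needed to form and keep luminal cells. Its level was 283.5 CPM in irradiated 1 and 247.6 CPM in irradiated 2, with 313.8 and 314.5 CPM in the unirradiated pair, on 4645 to 6521 counts per library. Both irradiated libraries lay below the unirradiated pair, irradiated 2 further than irradiated 1. The fold change was 0.845 with a 95% interval of 0.674 to 1.06 (log2 -0.24, SE 0.13, edgeR adjusted p = 0.647). Gata3 (ENSMUSG00000015619) lies on the minus strand of chromosome 2 from 9857078 to 9890034 in mm10, and 5.8% of its exon bases are shared with Gm13256 on the other strand and 9230102O04Rik. Because the kit was non-directional, reads from such bases cannot be told apart between the genes.

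Foxa1 encodes a forkhead pioneer factor that lets the estrogen receptor reach its sites. Its level was 31.7 CPM in irradiated 1 and 57.0 CPM in irradiated 2, against 35.6 and 34.5 CPM in the unirradiated libraries. The irradiated values lay on either side of the unirradiated pair, and irradiated 2 was 0.84 higher than irradiated 1 on the log2 scale. The fold change was 1.27 (95% interval 0.759 to 2.11, log2 0.34, SE 0.29, edgeR adjusted p = 0.799). Without irradiated 2 its log2 fold change was -0.16, and without irradiated 1 it was 0.69. The Foxa1 promoter is shown because this gene and Pgr, shown further on, differed most between the irradiated libraries. Foxa1 (ENSMUSG00000035451) lies on chromosome 12 from 57540628 to 57546916 on the minus strand. The promoter window covers 250 bases before to 50 after a start credited to RefSeq on GRCm38.p6. It lies at chr12:57546062-57546361 on the minus strand and is written 5′ to 3′. The window is wholly inside the gene span just given, so this start is not the upstream end of that span.
Foxa1: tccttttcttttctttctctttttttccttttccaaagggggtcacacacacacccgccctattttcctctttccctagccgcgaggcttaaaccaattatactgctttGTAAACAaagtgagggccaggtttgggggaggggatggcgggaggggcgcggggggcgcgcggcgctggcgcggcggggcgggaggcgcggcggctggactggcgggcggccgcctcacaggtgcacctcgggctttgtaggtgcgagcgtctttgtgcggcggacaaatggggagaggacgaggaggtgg
The capitals mark a forkhead match, the only match in this window to any of 7 motifs searched on both strands: forkhead (TGTTTAC or TATTTAC), the motif of GATA factors (AGATAA, the variant AGATAG, the variant TGATAA and the variant TGATAG), ETS (AGGAAG or CGGAAG), Stat5 (TTCNNNGAA), the estrogen response motif (AGGTCA), the progesterone response motif (TGTTCT) and the T-box motif (AGGTGTGA). The match starts at position -141 from the RefSeq start of the window. A forkhead match is held by 6.54% of the 32851 promoters in the table. The letters searched for the estrogen response, progesterone response and T-box motifs are each a single arm of the full motif. These are matches of letters in a window and say nothing about binding.

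The 3 ETS factors share a DNA-binding domain that recognizes a GGAA core. Elf5, the alveolar regulator, reached 217 and 225 CPM with radiation and 273 and 277 CPM without. The groups were apart, and the 2 irradiated libraries differed by 0.0526 on the log2 scale. Its fold change was 0.804 with a 95% interval of 0.661 to 0.979 (log2 -0.31, SE 0.11, edgeR adjusted p = 0.51). Elf5 (ENSMUSG00000027186) lies on chromosome 2 from 103411688 to 103450989 on the plus strand. Ehf (ENSMUSG00000012350), whose nearest protein-coding gene is Elf5 at a gap of 108410 bases, lies from 103263433 to 103303278 on the minus strand, so the pair points away from each other. Ehf, an epithelial ETS factor and the most abundant of the 10 genes, was at 551.5 and 424.8 CPM, against 556.6 and 564.8 CPM. Irradiated 1 lay just under the unirradiated pair and irradiated 2 clearly under it. The Ehf fold change was 0.871 (95% interval 0.642 to 1.18, log2 -0.20, SE 0.17, edgeR adjusted p = 0.804). Without irradiated 2 its log2 fold change was -0.0373.

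Spdef encodes the ETS factor of secretory and goblet-type cells, and it was the lowest of the 10 genes relative to its unirradiated level. Irradiated 1 held 23.2 CPM and irradiated 2 held 28.9 CPM of Spdef, and the unirradiated pair 42.6 and 44.4 CPM, on 461 to 885 counts. All irradiated values lay below all unirradiated ones, with irradiated 1 the lower of its pair. The fold change was 0.6004 with a 95% interval of 0.458 to 0.787 (log2 -0.74, SE 0.15), which did not pass by edgeR (adjusted p = 0.489) and passed by DESeq2 (adjusted p = 0.0259). Spdef ranked at place 125 of 15993 genes by p. Without the filter on low counts it passed by edgeR too (adjusted p = 0.000943), where 0.381% of 27538 genes were called lower. Spdef (ENSMUSG00000024215) lies on chromosome 17 from 27714352 to 27728955 on the minus strand, shares no exon bases with another gene, and has no 50-base run of its transcripts in those of another gene. The Spdef and Elf5 promoters are shown together as those of the lower ETS genes with an interval under 1. The Spdef window lies at chr17:27728902-27729201 on the minus strand. The Elf5 window is at the first of 2 listed Elf5 starts, chr2:103411848-103412147 on the plus strand, both from RefSeq on GRCm38.p6. Like that of Foxa1, the Elf5 window is wholly inside the gene span given above.
Spdef: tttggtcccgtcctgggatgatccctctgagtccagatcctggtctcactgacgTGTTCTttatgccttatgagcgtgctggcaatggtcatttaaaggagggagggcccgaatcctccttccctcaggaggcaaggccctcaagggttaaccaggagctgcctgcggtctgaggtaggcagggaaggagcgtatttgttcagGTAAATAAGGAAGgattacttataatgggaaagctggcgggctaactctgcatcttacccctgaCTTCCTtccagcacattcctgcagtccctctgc
Elf5: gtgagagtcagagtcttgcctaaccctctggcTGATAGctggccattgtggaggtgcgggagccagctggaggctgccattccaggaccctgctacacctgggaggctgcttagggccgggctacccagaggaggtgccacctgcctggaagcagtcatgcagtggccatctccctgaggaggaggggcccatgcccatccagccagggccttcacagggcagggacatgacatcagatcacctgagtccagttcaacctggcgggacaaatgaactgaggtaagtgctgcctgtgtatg
Capitals mark every motif match. In the Spdef window a forkhead match at position -47 runs straight into an ETS match at -40. A second ETS match lies at 18 after the start, and a single arm of the progesterone response motif lies at -196. The Elf5 window holds 1 GATA match, at -218, and no ETS match. An ETS match is held by 46.5% of all promoters in the table, a GATA match by 29.8% and the progesterone response arm by 19%.

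Tbx3 encodes a T-box repressor that the hormone-sensing luminal lineage uses in mouse. It was the gene of the 10 with the largest fold change, with 19.6 CPM in irradiated 1 and 16.5 CPM in irradiated 2, and 7.27 and 7.08 CPM in the unirradiated pair. The groups were well apart. Exact Poisson 95% intervals, which cover counting error only, ran from 17.7 to 21.6 and from 14.7 to 18.4 CPM with radiation, and from 6.15 to 8.52 and from 5.87 to 8.46 CPM without. The fold change was 2.51 with a 95% interval of 1.75 to 3.60 (log2 1.33, SE 0.20). It did not pass by edgeR (adjusted p = 0.489), and it passed by DESeq2 (adjusted p = 0.0015). Tbx3 ranked at place 27 of 15993 genes by p, and it passed by edgeR without the filter on low counts (adjusted p = 0.000194), where 4.86% of genes were called higher. Irradiated 2 minus irradiated 1 was -0.25 for Tbx3 on the log2 scale. Most macrophage, lymphocyte, endothelial and fibroblast markers were also above in both irradiated libraries. Their median log2 difference, irradiated 2 minus irradiated 1, was 3.06, 1.96, 3.99 and 2.72 in that order. The part of each of these cell types in the Tbx3 difference was not tested. Tbx3 (ENSMUSG00000018604) lies on chromosome 5 from 119670669 to 119684724 on the plus strand, and 1.7% of its exon bases are shared with the antisense gene Tbx3os1.

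**Figure D3:**
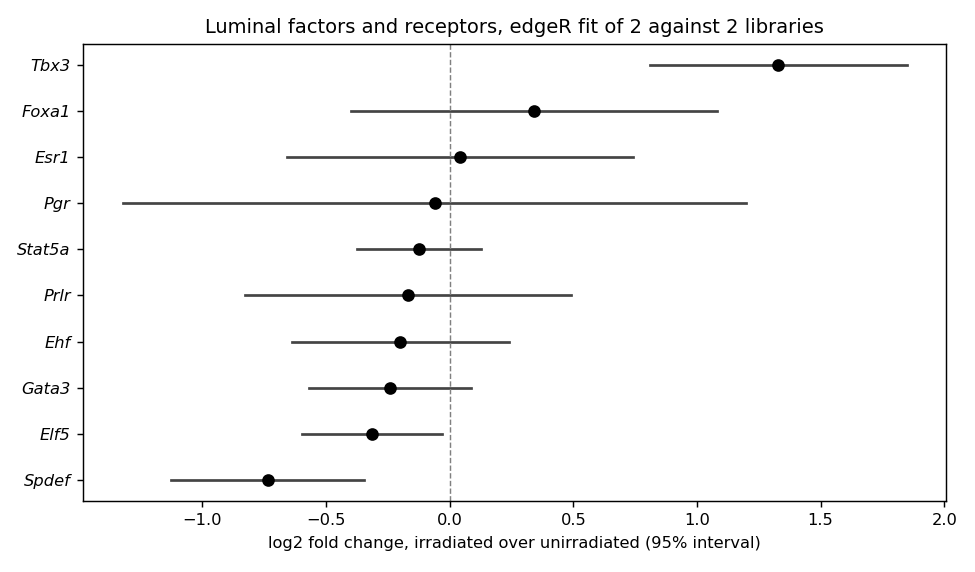
Log2 fold change of each gene, irradiated over unirradiated, from the edgeR fit of 2 against 2 libraries, with points for the estimate and lines for the 95% interval. The intervals of Tbx3 (0.81 to 1.85), Elf5 (-0.60 to -0.0312) and Spdef (-1.13 to -0.35) leave out 0, and that of Pgr is the widest, from -1.32 to 1.20.

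Among the steroid receptors, Esr1, the gene of estrogen receptor alpha, reached 6.86 and 9.06 CPM with radiation and 7.17 and 8.32 CPM without, on 136 to 170 counts. The groups overlapped. The fold change was 1.03, with a 95% interval of 0.633 to 1.67 (edgeR adjusted p = 0.982), so a lower or a higher level within that range remains possible. Esr1 (ENSMUSG00000019768) lies on chromosome 10 from 4611593 to 5005614 on the plus strand. Without irradiated 2 the log2 fold change was -0.18, and without unirradiated 1 it was -0.072. Pgr, the gene of the progesterone receptor and a classical estrogen target, had 4.69 CPM in irradiated 1 but 12.5 CPM in irradiated 2, and 8.47 and 9.44 CPM in the unirradiated pair. The irradiated libraries lay on opposite sides of the unirradiated pair, and this was the only one of the 10 genes with more than 2-fold between them (log2 difference 1.39). The Poisson intervals of the irradiated libraries, 3.79 to 5.75 CPM on 93 counts and 10.9 to 14.2 CPM on 234 counts, did not overlap. The fold change between groups was 0.958, with a 95% interval of 0.400 to 2.30 (edgeR adjusted p = 0.985). Without irradiated 1 the log2 fold change was 0.47, without irradiated 2 it was -0.94 and without unirradiated 2 it was 0.0068. Pgr (ENSMUSG00000031870) lies on chromosome 9 from 8899833 to 8968611 on the plus strand, and its promoter window lies at chr9:8899583-8899882 on the plus strand (RefSeq, GRCm38.p6).
Pgr: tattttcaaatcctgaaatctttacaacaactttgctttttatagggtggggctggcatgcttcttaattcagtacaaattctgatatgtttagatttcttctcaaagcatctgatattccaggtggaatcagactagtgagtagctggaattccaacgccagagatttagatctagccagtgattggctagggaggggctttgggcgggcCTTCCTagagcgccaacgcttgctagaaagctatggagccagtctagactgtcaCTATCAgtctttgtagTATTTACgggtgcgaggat
Its capitals mark an ETS match at position -39, a GATA match at 16 and a forkhead match at 32. Forkhead matches thus lie in the Foxa1 and Pgr windows, as in 6.54% of all promoters in the table. The Spdef window and the window of start 2 of the 3 listed for Prlr, not shown, also hold one.

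On the prolactin side, Prlr, the gene of the prolactin receptor, had 52.8 CPM in irradiated 1 but 88.1 CPM in irradiated 2, and 74.8 and 83.7 CPM in the unirradiated pair. Irradiated 1 was the lowest library and irradiated 2 the highest. The fold change was 0.889 (95% interval 0.563 to 1.40, log2 -0.17, SE 0.26, edgeR adjusted p = 0.896). Without irradiated 1 the log2 fold change was 0.14 and without irradiated 2 it was -0.60. Prlr (ENSMUSG00000005268) lies on chromosome 15 from 10177238 to 10349180 on the plus strand, and 1.3% of its exon bases are shared with Gm21973. The counts are per gene and do not separate the long and short forms of the receptor. Stat5a, the factor that carries the prolactin signal to the genome, had the narrowest interval of the 10, at 80.5 and 78.1 CPM with radiation against 85.0 and 87.9 CPM. Both irradiated libraries lay slightly under both unirradiated ones. The Stat5a fold change was 0.918, with a 95% interval of 0.772 to 1.09 (log2 -0.12, SE 0.097, edgeR adjusted p = 0.778). Stat5a (ENSMUSG00000004043) lies on chromosome 11 from 100859351 to 100885169 on the plus strand. Its paralog Stat5b lies 8627 bases away, and 8.52% of the 50-base runs in Stat5a transcripts also occur in other genes, Stat5b more often than any other, and 1.0% of its exon bases are shared with Stat3 on the other strand, so that part of its reads is uncertain. Stat5b itself was at 76.3 and 80.1 CPM against 81.3 and 91.1 CPM.

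**Figure D4:**
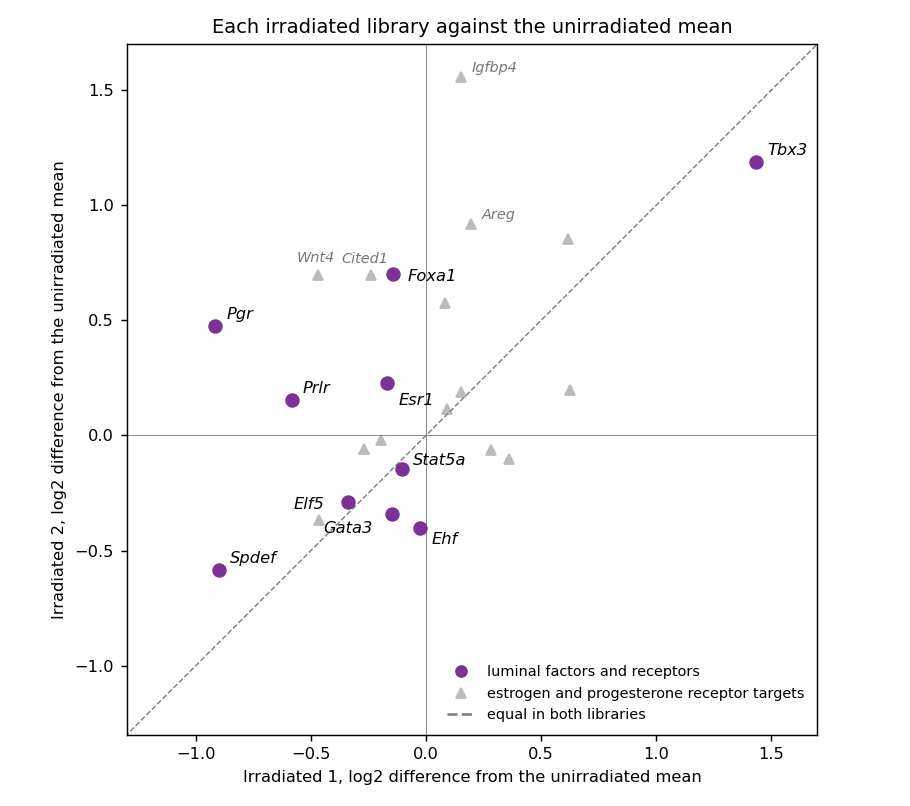
Log2 difference from the unirradiated mean in irradiated 1 (horizontal axis) and irradiated 2 (vertical axis) for the 10 genes (purple circles) and 14 estrogen and progesterone receptor targets (gray triangles), with a dashed line where both libraries are equal. Tbx3 and Spdef lie near the line, far from 0, while Pgr, Prlr, Foxa1 and Esr1 lie above it, below 0 in irradiated 1 and above 0 in irradiated 2.

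Foxa1 and the 3 hormone receptor genes thus lay under the unirradiated mean in irradiated 1 and over it in irradiated 2. The log2 differences were -0.92 and 0.48 for Pgr, -0.58 and 0.15 for Prlr, -0.14 and 0.70 for Foxa1 and -0.17 and 0.23 for Esr1. Gata3 (-0.20), Tbx3 (-0.25) and Ehf (-0.38) were the other way round, lower in irradiated 2 than in irradiated 1 on the log2 scale. For Esr1 the Poisson intervals were 5.8 to 8.1 CPM in irradiated 1 and 7.8 to 10.5 CPM in irradiated 2. In unirradiated 1 and 2 they were 6.1 to 8.4 and 7.0 to 9.8 CPM. These Esr1 intervals all overlapped, so its placing on either side of the mean is within counting error. The share of all tested genes under the mean in irradiated 1 and over it in irradiated 2 was not computed. The unirradiated libraries differed by 0.21 or less in each of the 10 genes. With 1 library on each side these differences have no test. Irradiated 2 also had the higher endothelial (78.1 and 1102 CPM in irradiated 1 and 2), fibroblast (796 and 5870 CPM) and macrophage (366 and 1055 CPM) marker sums and the lower luminal sum (13710 and 11740 CPM), and their part in these differences was not tested. Over all tested genes the median size of the difference was 0.33 between the irradiated libraries and 0.13 between the unirradiated ones, and over the 10 genes it was 0.35 and 0.046.

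Most estrogen and progesterone receptor targets were higher in irradiated 2 than in irradiated 1, some by little. Of the 14 tested of 18 listed, 11 were higher in irradiated 2 than in irradiated 1 (78.6%), beside 54.5% of all tested genes. Of the 10 genes themselves 6 were (60%), near that share. The median log2 difference, irradiated 2 minus irradiated 1, was 0.19 over the 14 targets and 0.18 over the 10 genes, beside 0.057 over all tested genes. Among the 11 higher targets it ran from 0.024 for Rara to 1.405 for Igfbp4. Wnt4, a ligand that progesterone induces, had 8.42 CPM in irradiated 1 and 19.0 CPM in irradiated 2 beside 12.2 and 11.2 CPM in the unirradiated pair, and Cited1, an estrogen receptor coactivator, had 16.1 and 30.9 CPM against 19.9 and 18.2 CPM. Areg, which encodes amphiregulin, the growth factor of ductal growth under estrogen, was at 8.88 and 14.7 CPM against 6.74 and 8.91 CPM. The 3 targets that were lower in irradiated 2 were Greb1, with 2.98 CPM in irradiated 1 and 2.19 CPM in irradiated 2, Nrip1, with 96.4 and 69.9 CPM, and Id4, with 11.5 and 9.01 CPM. The unirradiated pair had 1.73 and 2.06 CPM of Greb1, 72.0 and 78.2 CPM of Nrip1 and 10.2 and 8.67 CPM of Id4. All targets given to this point were named after their values were seen. Between the groups 0 of the 14 passed by edgeR (2 at an unadjusted p under 0.05) and 1 by DESeq2, 6 lay above and 2 below, and the median log2 fold change was 0.20. The 2 with the smallest p were Igf1r, the receptor gene of insulin-like growth factor 1, with 14.1 and 16.7 CPM against 8.08 and 10.4 CPM (log2 fold change 0.73, SE 0.23), and Xbp1, a secretory cell factor and the 1 called by DESeq2, at 785 and 840 CPM against 1099 and 1067 CPM (log2 fold change -0.41, SE 0.14).

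Prolactin receptor signaling genes lay on both sides. Of 14 tested, 3 lay above and 5 below, 0 passed by edgeR (3 at an unadjusted p under 0.05) and 1 by DESeq2, with a median log2 fold change of 0.0181. Socs1, a feedback inhibitor of Janus kinases that interferon also induces, was at 14.7 and 17.3 CPM against 7.79 and 7.08 CPM (log2 fold change 1.11, SE 0.21, DESeq2 adjusted p = 0.0138). Jak2, the kinase bound to the prolactin receptor, was at 58.2 and 72.3 CPM against 46.5 and 50.8 CPM (log2 fold change 0.42, SE 0.14). The Stat5 feedback gene Cish, named after its values were seen, was at 37.0 and 39.8 CPM against 45.9 and 47.6 CPM.

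Milk genes downstream of Stat5 and Elf5 were split too. Of 11 tested, 4 lay above and 3 below, 0 passed by edgeR (5 at an unadjusted p under 0.05) and 4 by DESeq2, 2 in each direction, with a median log2 fold change of -0.037. Csn2, which encodes beta-casein, had 14.3 and 15.7 CPM with radiation and 4.81 and 3.48 CPM without (log2 fold change 1.85, SE 0.27), and Btn1a1, which encodes butyrophilin of the milk fat globule, was at 60.1 and 66.0 CPM against 98.5 and 101 CPM (log2 fold change -0.66, SE 0.11). The other pair that DESeq2 called, named after their values were seen, were Csn1s1, the gene of an alpha casein, at 53.8 and 50.1 CPM against 33.9 and 32.6 CPM, and Lalba, which encodes the lactose synthase subunit alpha-lactalbumin, at 160 and 193 CPM against 269 and 239 CPM. In all 4 the groups were apart.

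Cofactors and other luminal regulators held 22 tested genes, of which 3 lay above and 4 below, 0 passed by edgeR (3 at an unadjusted p under 0.05) and 1 by DESeq2, with a median log2 fold change of -0.0437. Zfpm1, which encodes the GATA partner FOG1, was at 30.3 and 29.7 CPM against 20.2 and 18.7 CPM (log2 fold change 0.63, SE 0.14). Tfap2b, an AP-2 family factor, was at 34.0 and 45.6 CPM against 65.1 and 65.0 CPM (log2 fold change -0.71, SE 0.17), and it was the 1 called by DESeq2. Only 3 of the 22 were higher in irradiated 2 than in irradiated 1 (13.6%), which is the opposite side of the 54.5% over all genes from the estrogen and progesterone receptor targets. Luminal epithelial markers leaned the same way, with 4 of 16 higher in irradiated 2 (25%), as did basal markers, with 5 of 15 (33.3%). Tested fibroblast, endothelial and macrophage markers were all higher in irradiated 2 (100%). These differences between lists were not tested.

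Other nuclear receptors gave no call with either tool. Of 22 tested of 23 listed, 5 lay above and 4 below, 0 passed by edgeR and 0 by DESeq2, which gave no adjusted p for Rarb, Esrrb and Ppara, and the median log2 fold change was 0.12. The 1 gene at an unadjusted p under 0.05 by edgeR was the retinoic acid receptor gene Rarb, named after its values were seen, on 17 and 11 counts with radiation and 0 and 2 without. Thra, which encodes a thyroid hormone receptor, had 43.4 and 43.3 CPM against 37.1 and 34.8 CPM (log2 fold change 0.27, SE 0.11), and Esrrg, the gene of an estrogen-related receptor, at 15.7 and 14.4 CPM against 18.4 and 18.6 CPM (log2 fold change -0.29, SE 0.16).

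Among family relatives of the 10 genes 13 of 24 passed the filter, 4 lay above and 4 below, 0 passed by edgeR (4 at an unadjusted p under 0.05) and 2 by DESeq2, and the median log2 fold change was 0.0182. Foxa2 and Gata5 had 0 counts in every library. Tbx15, a T-box gene, lay on the other side from Tbx3, at 79.5 and 73.8 CPM against 131 and 118 CPM (log2 fold change -0.70, SE 0.11, DESeq2 adjusted p = 0.00167). Elf4, an ETS gene that blood cells use, was at 8.78 and 20.3 CPM against 3.42 and 5.13 CPM (log2 fold change 1.77, SE 0.49, DESeq2 adjusted p = 0.0285), beside Ptprc at 9.63 and 77.2 CPM against 2.41 and 1.18 CPM. The part of blood cells in the Elf4 difference was not tested. Stat3, Stat5b, Esr2, Elf3 and Rara are each on 2 of these lists.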

How the data were processed

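Poly(A) RNA of sorted cells was sequenced with a non-directional kit, per the labels' protocols. Unnormalized counts for each gene were deposited by the authors. STAR 2.5, HTSeq 0.6.1, DESeq2 and mm10 are named in the submitters' processing notes. How reads were assigned to genes is not given in the sources used here. The table of all 4 libraries was used, and its columns equal the 3 single-library tables. All 10 genes have the same position in GENCODE M21.

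Low genes were removed with filterByExpr (count at least 10, total at least 15) in edgeR 4.0.16 under R 4.3.3. After TMM scaling, which also enters CPM and RPKM, the two-sided quasi-likelihood test was applied to every remaining gene, and an adjusted p (Benjamini-Hochberg, whole table) under 0.05 counted as passing. Log2 differences between single libraries used log2 CPM with a prior count of 2. DESeq2 1.42.0 and limma-voom (limma 3.58.1) were alternatives, and an adjusted p that DESeq2 left as NA was kept out. No permutation test was made, since its exact minimum p with 4 libraries is 0.333. The steps were tested on simulated data in which both groups had the same spread. That setting differs from these libraries, so it cannot show how the tests behave under unequal spread.

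The genes and lists were chosen with earlier results of these data known. Named beside the 10 are Dll1 and, in each list that is not of markers, genes past the threshold or else the 2 with the smallest p that have groups apart and at least 1 CPM on average. Promoters come from RefSeq (GRCm38.p6), where 8 of the 10 genes matched, all but Tbx3 and Ehf.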

Additional observations from a re-analysis of the deposited data

How the results depend on the processing

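With 2 libraries a group and unequal spread, calls turned on the filter and the tool. With no filter beyond 1 count edgeR called 1338 genes higher and 105 lower, among them 1 and 1 of the 10 genes, Tbx3 and Spdef. DESeq2 called 437 higher and 56 lower, with the same pair. The cause was not tested. The fit with the replicate number as a block called 2 genes higher and 0 lower and none of the 10. The labels do not say that equal numbers mark shared animals, so the numbers were not taken as pairs. The deviations of same-numbered libraries had a correlation of -0.0992 over genes. This rests on a single difference within each group and cannot decide whether the libraries are paired. Without any 1 library the counts ran from 0 to 2713 genes higher and from 0 to 2355 lower, and from 0 to 2 of the 10 genes higher and 0 to 4 lower; the highest counts of all genes came without irradiated 1 (15.9% higher, 7.95% lower) or irradiated 2 (11.9% and 13.9%), where the lone library is assumed to vary like the unirradiated pair. Without irradiated 1 the calls were Foxa1 and Tbx3 higher and Gata3, Elf5, Spdef and Ehf lower. Without irradiated 2 they were Tbx3 higher and Elf5, Spdef, Pgr and Prlr lower. With 1 library left out, from 1 to 5 of the 10 genes lay above and from 5 to 9 below. Under DESeq2 size factors 4 lay below. Shares over all genes were not computed for these settings. A lone library lies outside the other pair more readily, so the shares given above for 2 against 2 do not apply to it. Log2 fold changes without 1 library ran from -0.16 to 0.69 for Foxa1, -0.18 to 0.22 for Esr1, -0.94 to 0.47 for Pgr, -0.60 to 0.14 for Prlr and -0.71 to 0.16 for Dll1. Tbx3 stayed between 1.18 and 1.43 and Spdef between -0.91 and -0.60. Over 13 alternatives for each of the 10 genes, 109 of 130 values kept their direction and their side of the threshold, 15 moved past it and 6 turned, all of these without 1 library. Pgr and Esr1 rest on 93 to 234 counts per library, and the effect of depth on their intervals was not tested.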
